A study of Homo sapiens with 4 samples.

Results

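The ends of the chromosome arms are described here by the 500 bp windows of the deposited 5hmC-Seq table that lie in the terminal megabase of each autosome arm. A window belonged to this set when it ended within the first 1000000 bp of a chromosome, or began within 1000000 bp of the last position listed on that chromosome. The short arms of chromosomes 13, 14, 15, 21 and 22 were left out, so that 39 arm ends remained, 17 of short arms and 22 of long arms. The rule used positions only and found 28419 of the 956365 windows in the table, of which 944052 lie on the 22 autosomes.

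The table came from FADU cells, an established hypopharyngeal squamous carcinoma cell line, profiled as 4 libraries with 1 per condition. Hypoxia (scrambled control) cells carried a control knockdown and were kept in 1% O2 for 18 h, and Hypoxia (TET1-si) cells carried a knockdown of TET1 and were kept in 1% O2 for 19 h, as labelled. Normoxia (scrambled control) and Normoxia (TET1-si) cells carried the same 2 kinds of knockdown in the ordinary culture atmosphere. The names of the 4 value columns match none of these labels, so that the values were not read and no condition was compared with another.

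A listed window is therefore a position that the authors kept, in a table that covers all 4 libraries together. It cannot be assigned to a condition, and an unlisted window may still have had reads. The title of the table names a minimum of 20 without saying of what, and this was not tested. The sample titles name hMeDIP, a pull-down of 5hmC, but the protocol in the labels uses an antibody to 5-methylcytidine, whereas the methods of the study describe chemical capture of 5hmC, so that the mark behind the windows is taken as 5hmC from the methods and remains uncertain.

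Chromosome ends are capped by telomeres, arrays of the repeat TTAGGG that protect the DNA ends. The subtelomere beside them is a patchwork of segments copied between chromosomes, short tandem repeats and relics of telomere repeats, and it passes inwards into DNA that is often rich in genes, GC and CpG. TET enzymes, TET1 among them, oxidize 5-methylcytosine at CpG sites to 5-hydroxymethylcytosine (5hmC), a step in DNA demethylation that is commonly found in gene bodies and beside CpG-rich promoters.

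The sequences below show the kinds of DNA found in these windows. All were read from the forward strand of GRCh37, whose autosome coordinates are those of hg19, and each is a stretch of 300 bases of its window outside exons of protein-coding genes. They show the listed window richest in CpG among those searched, a tandem repeat, and a listed and an unlisted CpG-rich window of unique sequence. Capitals mark CG dinucleotides, and between genes means outside protein-coding genes only. Noncoding genes were not considered, so that a stretch so labelled may lie in or beside one. Each was taken because it held the most of its feature among the windows searched.
12p, 94.5 kb from the end, listed (chr12:94660-94959): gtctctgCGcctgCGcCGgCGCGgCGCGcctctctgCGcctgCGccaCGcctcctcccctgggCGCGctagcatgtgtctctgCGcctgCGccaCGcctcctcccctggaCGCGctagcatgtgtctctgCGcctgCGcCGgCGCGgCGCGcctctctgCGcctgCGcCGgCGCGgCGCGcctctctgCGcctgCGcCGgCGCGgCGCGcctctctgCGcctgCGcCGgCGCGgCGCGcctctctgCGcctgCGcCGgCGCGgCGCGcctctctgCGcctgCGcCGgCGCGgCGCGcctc
2p, tandem repeat, listed (chr2:420501-420800): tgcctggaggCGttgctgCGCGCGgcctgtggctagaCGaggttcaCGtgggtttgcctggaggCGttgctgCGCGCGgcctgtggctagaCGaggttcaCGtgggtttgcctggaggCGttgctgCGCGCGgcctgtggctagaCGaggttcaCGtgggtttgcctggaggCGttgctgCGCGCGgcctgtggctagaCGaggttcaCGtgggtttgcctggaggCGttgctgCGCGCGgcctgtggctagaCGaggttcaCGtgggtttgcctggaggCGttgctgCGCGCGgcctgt
12p, IQSEC3 intron, listed (chr12:187128-187427): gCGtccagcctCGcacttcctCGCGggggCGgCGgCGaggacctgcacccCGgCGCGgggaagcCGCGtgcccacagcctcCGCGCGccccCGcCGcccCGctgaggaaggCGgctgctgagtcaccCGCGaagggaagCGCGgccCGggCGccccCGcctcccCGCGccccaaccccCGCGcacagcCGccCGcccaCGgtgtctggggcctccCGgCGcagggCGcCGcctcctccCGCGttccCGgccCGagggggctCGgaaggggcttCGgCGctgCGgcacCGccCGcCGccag
11p, between genes, not listed (chr11:568545-568844): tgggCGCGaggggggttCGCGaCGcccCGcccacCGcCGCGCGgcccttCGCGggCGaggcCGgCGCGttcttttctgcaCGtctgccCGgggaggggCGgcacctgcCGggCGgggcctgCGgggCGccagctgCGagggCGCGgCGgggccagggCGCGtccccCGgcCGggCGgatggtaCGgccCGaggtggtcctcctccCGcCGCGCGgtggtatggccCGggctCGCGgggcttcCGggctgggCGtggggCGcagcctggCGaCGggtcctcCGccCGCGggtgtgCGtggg

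The first window of 12p held 89 CpG sites in 500 bp, in a repeat of short units, and 3 of its 5 sampled 50-base sequences occurred once in the genome. The printed window of 2p consisted entirely of repeated 12-base words, and none of its 5 sampled sequences was unique. The window in the intron of IQSEC3, a gene for a synaptic exchange factor, had 74 CpG sites and was listed, whereas the window of 11p had 80 and was not. Windows of the composition of these last 2 were listed in 5.18% of cases over all autosomes. Similar CpG number and unique sequence thus went with either outcome. Whether either window lies at the start of a noncoding gene was not tested.

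Windows at the arm ends were listed more often than those of the autosomes as a whole. Of the 74966 windows of the terminal megabases without an undetermined base, 28415 were listed. This was 37.9% (95% Wilson interval 37.56 to 38.25), against 17.6% of all autosomal windows and 17.3% of those outside the arm ends. Windows of the same CpG number and GC content were listed in 33.25% of cases over all autosomes, which is taken here as the predicted share. The ratio of listed to predicted share was 1.14 (1.13 to 1.15), so that a large part of the excess went with base composition. The mean CpG number was 10.6 per window at the arm ends and 4.89 elsewhere, and GC content was 48.5% and 40.9%. The intervals cover counting error only, because neighbouring windows are not independent and no replicate exists.

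The adjacent DNA was listed still more often. From 1 to 2 Mb from the same ends 42.8% of windows were listed with a ratio of 1.18, and from 2 to 10 Mb 26.6% with a ratio of 1.04. The pooled ratio of the terminal megabase was thus lower than that of its neighbour, but this order turned in unique sequence (1.13 against 1.11), and of the 39 arm ends 19 had the higher ratio in the terminal megabase and 20 the lower. Long arm ends were listed at 42.4% with a ratio of 1.23 (1.22 to 1.24), and short arm ends at 31.9% with a ratio of 1.01 (0.995 to 1.03). The same order held from 1 to 2 Mb, where the ratios were 1.26 for long arms and 1.075 for short arms. Short and long arm ends were set differently, and the order turned in the outer 200 kb counted from the assembly, as given below.

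Within the terminal megabase, listed windows were sparse next to the end and frequent further in. In the outermost 50 kb 481 of 2843 windows were listed, 16.9% against a predicted 26.0%, a ratio of 0.651. The ratio was 0.720 from 50 to 100 kb, 0.767 from 100 to 150 kb and 0.852 from 150 to 200 kb, and it first exceeded 1 from 250 to 300 kb with a value of 1.11. It reached its highest value of 1.285 from 700 to 750 kb. At the inner edge of the terminal megabase there was no step, with 43.95% listed from 950 to 1000 kb and 43.1% from 1000 to 1050 kb. The outer 200 kb together had 2757 of 14194 windows listed, 19.4% with a ratio of 0.755 (0.730 to 0.781), against 42.2% and 1.21 (1.20 to 1.22) in the inner 800 kb. Distances are counted from base 1 on short arms and from the last listed base on long arms, which leaves out unlisted sequence beyond it. Counted from the outermost determined bases of the assembly instead, the ratio was 0.47 in the outermost 50 kb and 0.664 in the outer 200 kb, and 1.21 in the inner 800 kb. By this count short arms had 0.589 in the outermost 50 kb, 0.694 in the outer 200 kb and 1.08 in the inner 800 kb. Long arms had 0.380, 0.642 and 1.30.

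**Figure D1:**
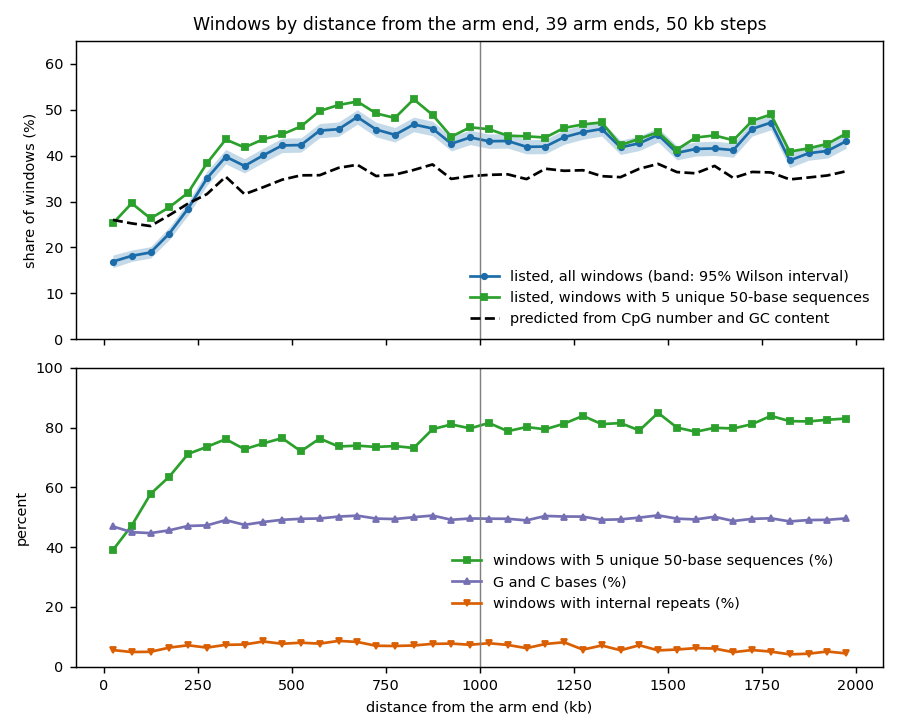
The upper panel plots the share of 500 bp windows in the table (%) against distance from the arm end (kb; from base 1 on short arms and from the last listed base on long arms) in steps of 50 kb over 39 arm ends, for all windows, for windows with 5 unique 50-base sequences, and as predicted from composition; the lower panel plots the percent of windows with 5 unique sequences, the percent of G and C bases and the percent of windows with internal repeats. The vertical line marks 1000 kb, and the listed share of all windows rose from 16.9% in the outermost step to 48.4% from 650 to 700 kb.

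Sequence that occurs more than once moved with this profile. The authors kept only reads that mapped to 1 place, and for each window 5 sequences of 50 bases were compared with the whole genome. All 5 occurred once in 70.9% of windows at the arm ends, in 81.3% from 1 to 2 Mb and in 81.5% of the autosomes outside the arm ends. In the outer 200 kb this share was 52.8%, and in the inner 800 kb 75.1%. Of the 4020 terminal windows in which none of the 5 sequences was unique, 127 or 3.16% were listed. The listed share was 7.60% with 1 unique sequence, 16.6% with 2, 29.98% with 3, 38.2% with 4 and 43.3% with 5.

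Among windows with 5 unique sequences, with the prediction made from such windows too, the outer 200 kb had 27.7% listed and a ratio of 0.901 (0.869 to 0.9345). The ratio of the outermost 50 kb was 0.857 and that of the inner 800 kb was 1.16 (1.15 to 1.18). The deficit near the end was thus smaller in unique sequence but the outer windows were still below the inner ones. The terminal megabases as a whole had a ratio of 1.13 in unique sequence, against 1.11 from 1 to 2 Mb and 0.995 from 2 to 10 Mb, the reverse of the order over all windows.

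The outermost listed window lay at a median of 18 kb from the last determined base of the assembly, under 50 kb at 31 of the 39 arm ends and under 1 kb at 8. It was over 100 kb away at 3 ends, 212.5 kb at 8p, 189.8 kb at 5q and 129 kb at 11p. At 17p the window from base 1 of the chromosome was itself listed.

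Telomere-type repeats were present but not frequent among listed windows. At least 1 copy of TTAGGG or CCCTAA, searched on both strands as either hexamer, was found in 14.8% of terminal windows and in 16.9% of the other autosomal windows. At least 5 copies were found in 101 terminal windows, 0.135%, against 0.00559% elsewhere. Of these 101 windows 24 were listed, 23.8% (16.5 to 32.9), and the predicted share was 31.6%. Of the 54 with at least 10 copies 11 were listed. Only 33.7% of the 101 windows had 5 unique sequences.

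Tandem repetition of other kinds was common. At least 20% of the 12-base words recurred within the window in 7.11% of terminal windows and in 0.93% of the other autosomal windows. Such windows made up 6.95% of the listed and 7.21% of the unlisted terminal windows. Where at least 50% of a window's words recurred, as in the printed window of 2p, 27.5% were listed with a ratio of 0.676. Restricted to the 479 such windows with 5 unique sequences, the listed share was 48.4% and the ratio was 1.185. This prediction was made from all autosomal windows, not from unique ones alone. By the same prediction the ratio was 1.27 over all terminal windows with 5 unique sequences. For windows as repeated and as unique in the rest of the autosomes it was 1.30.

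Listed terminal windows were richer in CpG than unlisted ones. The median was 12 CpG sites per window (interquartile range 8 to 18) in listed and 5 (3 to 10) in unlisted windows, and the median GC content was 53.6% and 44%. All 5 sampled sequences were unique in 80.9% of listed and 64.8% of unlisted windows, and none was unique in 0.447% and 8.36%. CG was found in 97.5% of terminal windows and in 93.2% of the other autosomal windows, and 54 listed terminal windows had no CpG site.

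The listed share rose with CpG number and then fell. At the arm ends it was 2.93% in windows with no CpG site, 33.6% with 5 to 9, 66.6% with 15 to 19 and 71.3% (70.2 to 72.5) with 20 to 29. It was 62.9% with 30 to 39 and 34.0% (31.9 to 36.2) with 40 or more. The rest of the autosomes had 48.7% with 20 to 29 sites and 29.04% with 40 or more. The difference from the rest of the autosomes was therefore 22.7 percentage points with 20 to 29 sites and 4.99 points with 40 or more. The region from 1 to 2 Mb had 74.2% and 42.8%.

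**Figure D2:**
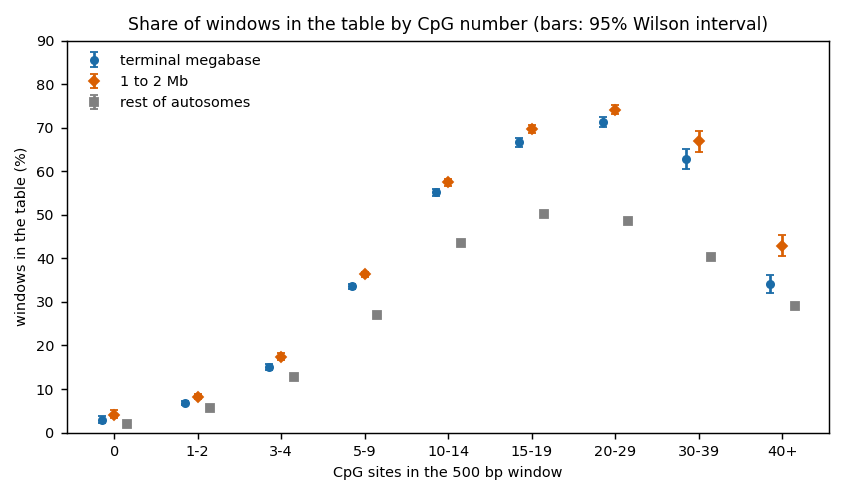
Share of 500 bp windows in the table (%) by the number of CpG sites in the window, for the terminal megabases, the region from 1 to 2 Mb and the rest of the autosomes, with 95% Wilson intervals as bars. All 3 regions have their lowest share at 0 CpG sites and a lower share at 40 or more than at 20 to 29, and the terminal megabases lie between the other 2 in every class.

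The listed share by distance from gene starts depended on CpG number. Of terminal windows with 40 or more CpG sites, 27.9% were listed within 2000 bp of the start of a protein-coding gene and 40.1% beyond that distance, and with 30 to 39 sites 55.3% and 65.0%. With 20 to 29 sites the values were 70.4% and 71.5%, and with 10 to 19 sites the windows near starts were listed more often, at 75.6% against 58.4%. In the rest of the autosomes the share near starts was also lower with 40 or more sites, at 24.3% against 39.4%, and higher with 10 to 19, at 60.0% against 44.2%.

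By annotation, introns held 46.1% of terminal windows and 57.85% of the listed ones. Windows in introns were listed at 47.55% with a ratio of 1.30, against 21.5% and 1.14 in the rest of the autosomes. Windows in coding exons were listed at 59.9% with a ratio of 1.28, against 34.4% and 1.03. Windows outside protein-coding genes and their flanks were listed at 23.6% with a ratio of 0.847, and at 12.9% with a ratio of 0.838 elsewhere. The ratio at the arm ends exceeded that of the rest of the autosomes in introns and coding exons. It was close to it outside protein-coding genes and their flanks.

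The arm ends differed widely from each other. The listed share ranged from 2.18% at 1q to 89.8% at 17q, with a median of 37.45%, and the ratio ranged from 0.146 to 2.735 with a median of 1.12. The ratio exceeded 1 at 22 of the 39 ends, 8 of 17 short and 14 of 22 long ones. It was under 0.5 at 6 ends and over 1.5 at 6. Of the 17 chromosomes with both ends measured, the long arm end had the higher ratio in 10 and the short arm end in 7. Arm ends are regions of 1 cell line and not replicates, so that these counts carry no test. The 4 samples include no unenriched library, and DNA copy number of the arms was not tested. Differences in listed share among arm ends can therefore not be read as differences in the mark alone.

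**Figure D3:**
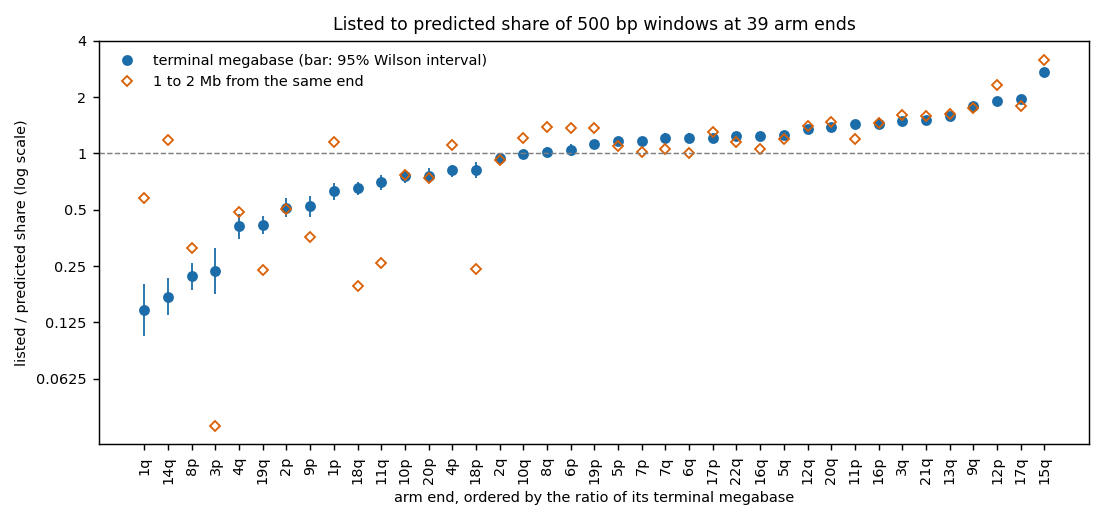
Ratio of listed to predicted share (log scale) for the terminal megabase of each of the 39 arm ends, as filled points with 95% Wilson intervals, and for the region from 1 to 2 Mb from the same end, as open diamonds, ordered by the terminal ratio. The dashed line marks a ratio of 1, the terminal ratios run from 0.146 at 1q to 2.735 at 15q, and the diamond lies furthest below the point at 3p and furthest above it at 14q.

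The highest ratios belonged to 15q, 17q and 12p. At 15q (chr15:101506501-102506500) 1513 of 2000 windows were listed, 75.65% with a ratio of 2.735 (2.67 to 2.80), and the adjacent megabase had 81.15% and 3.16. From 2 to 10 Mb the ratio was 1.03, and over chromosome 15 outside this end it was 1.146. Where along the arm the high share stops was not tested. At 17q (chr17:80154001-81154000) 1796 of 2000 windows were listed, 89.8% with a ratio of 1.957 (1.93 to 1.98), and the ratio was 1.79 from 1 to 2 Mb and 1.54 from 2 to 10 Mb. At 12p (chr12:1-1000000) 930 of 1779 windows were listed, 52.3% with a ratio of 1.89 (1.81 to 1.98), beside 2.33 from 1 to 2 Mb. These 3 ends were not the richest in CpG, with means of 7.80, 15.1 and 7.67 sites per window, while 16p had 17.65 sites, 72.0% of windows listed and a ratio of 1.43. The ends 9q, 13q and 21q followed with ratios of 1.80, 1.59 and 1.51.

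The lowest ratios belonged to 1q, 14q and 8p. At 1q (chr1:248240001-249240000) 37 of 1699 windows were listed, 2.18% with a ratio of 0.146 (0.106 to 0.2001), beside 0.576 from 1 to 2 Mb. At 14q (chr14:106260001-107260000) 72 of 2000 windows were listed, 3.6% with a ratio of 0.171 (0.137 to 0.215). The adjacent megabase of 14q had 56.6% and a ratio of 1.175, and chromosome 14 outside its end had a ratio of 1.81. This end carries the immunoglobulin heavy chain locus and no gene that the annotation used here counts as protein-coding. At 8p (chr8:1-1000000) 128 of 1980 windows were listed, 6.46% with a ratio of 0.221 (0.186 to 0.260), beside 0.3115 and 0.307 in the next 2 regions inwards. The share of windows with 5 unique sequences was 60.3% at 1q, 68.1% at 14q and 62.2% at 8p, and 73.45% at 15q and 72.55% at 17q. Other ends with ratios under 1 had a higher share of such windows, 83.0% at 3p, 86.8% at 2p, 84% at 18q and 84.55% at 11q.

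Most ends stood near their neighbouring megabase in order. Over the 39 ends the log2 ratios of the terminal and the adjacent megabase had a Pearson correlation of 0.69 and a Spearman correlation of 0.83, and the log2 ratios of the terminal megabase and of the region from 2 to 10 Mb a Pearson correlation of 0.44. The points share 1 table, and neighbouring regions share a chromosome. The terminal megabase had a higher ratio than the region from 2 to 10 Mb at 25 ends and than the rest of its chromosome at 23. The exceptions in both directions were large, with 3p at 0.235 against 0.0351 from 1 to 2 Mb, 18p at 0.815 against 0.242, 18q at 0.6495 against 0.195 and 11q at 0.700 against 0.261, while 14q, 1q and 1p had 0.171, 0.146 and 0.626 against 1.175, 0.576 and 1.15. At 1p 18.55% of windows had 5 unique sequences. The listed share and the mean CpG number of an end had a Pearson correlation of 0.75 and a Spearman correlation of 0.77 over the same 39 ends.

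Protein-coding genes were common at the arm ends, and most had a listed window in the promoter, taken as the 3000 bp upstream of the start of the canonical transcript. Of 650 such genes 536 or 82.5% had at least 1 of 6 promoter windows listed, against 76.6% of all autosomal protein-coding genes. All 6 were listed for 89 genes, 13.7% against 7.40%. The window that holds the start itself was listed for 171, 26.3% against 27.4%. In the gene body the median share of listed windows per gene was 57.0% against 26.6% over all autosomal genes, and 63 genes at the arm ends had no listed window in the body, 9.69% against 9.68%.

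Around the start the listed share had a dip. It was 60.9% from 1500 to 1000 bp upstream, 36.2% in the last 500 bp upstream, 27.7% (24.4 to 31.3) in the first 500 bp of the gene and 64.2% from 1000 to 1500 bp downstream. The rest of the autosomes had 44.1%, 35.8%, 25.3% and 45.8% at the same places. The ratio to the predicted share was 1.49 from 1500 to 1000 bp upstream at the arm ends and 1.55 in the rest, 0.838 and 0.709 in the first 500 bp, and 1.49 and 1.48 from 1000 to 1500 bp downstream.

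**Figure D4:**
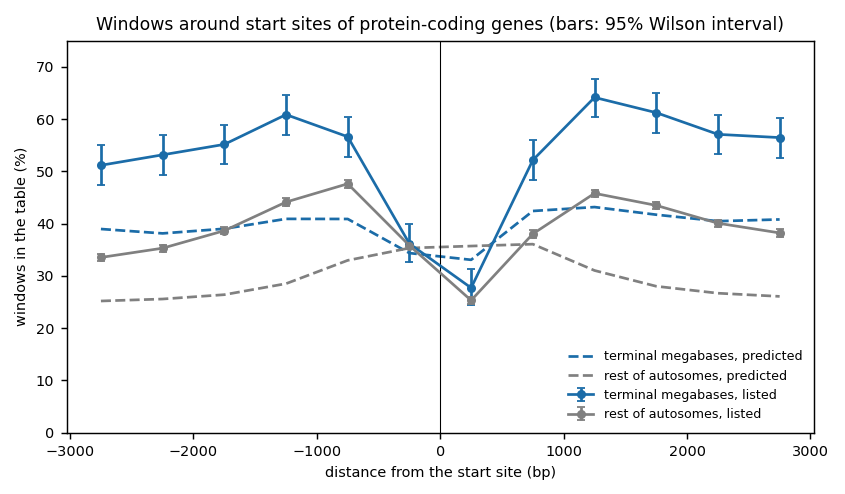
Share of windows in the table (%) against distance from the start of protein-coding genes (bp, negative upstream), for 650 genes of the terminal megabases and for the other autosomal genes, with 95% Wilson intervals as bars and the predicted shares as dashed lines. Both groups dip in the first 500 bp, to 27.7% and 25.3%, and the terminal genes are higher on both sides of the dip.

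Gene families of the arm ends lay below this background. Olfactory receptor genes, which encode odorant receptors of the nasal epithelium, had a listed promoter window in 4 of 32 cases at the arm ends, 12.5%, and in 13.4% elsewhere. The 4 were OR4F6 and OR4F15 at 15q with 3 of 6 promoter windows each, and OR2V1 with 3 and OR2Y1 with 1 at 5q. Zinc finger genes named ZNF or ZSCAN, whose products mostly bind DNA, had one in 36 of 59 cases, 61.0%, and in 59.7% elsewhere. The 6 beta-defensin genes had none, and 6 of 34 such genes elsewhere had one, 17.65%. The remaining terminal genes had one in 496 of 553 cases, 89.7%, against 78.3% elsewhere, and 47.3% of their body windows were listed against 22.5%. These families were grouped by name after the genes had been seen.

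Of the 27 genes at 1q 3 had a listed promoter window, and none of them was an olfactory receptor gene. They were SH3BP5L with 1 of 6 windows and the zinc finger genes ZNF672 with 2 and ZNF692 with 1. At 19q, where zinc finger genes cluster, 26 of 48 genes had one. All genes had one at 17q (20 genes), 9q (22), 20q (37) and 13q (12).

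Genes named for their biology were grouped by arm end. Of 62 such genes 60 were measured in the terminal megabases, and 43 of them had a listed promoter window, 71.7%, below the 82.5% of all terminal genes. The alpha-globin cluster at 16p, where 44 of 46 genes had a listed promoter window, encodes the alpha-type chains of haemoglobin. HBZ, the embryonic gene, and HBQ1 each had 4 of 6 promoter windows listed, HBA2 had 1, and HBA1 and HBM had 0. With the gene's 5' end as start HBM had 3 and HBZ 2, and the other globin genes were unchanged. HBA1 and HBA2 encode the same protein and none of the sampled body windows of either was fully unique, so that reads between them are uncertain. HBZ also had 0% of its body windows with 5 unique sequences. Beside them NPRL3, which holds distant enhancers of the cluster, had 3 of 6 promoter windows and 58 of 106 body windows listed. AXIN1, a scaffold of the beta-catenin destruction complex, had 5 of 6 and 117 of 130.

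At 11p, where 44 of 45 genes had a listed promoter window, all 7 named genes had one and 27 of their 32 body windows were listed. IRF7, a transcription factor of the interferon response, had all 6 promoter windows and all 7 body windows listed. The interferon-induced membrane protein genes IFITM1, IFITM3 and IFITM5 had 4 of 6 promoter windows listed, and IFITM2 had 3. The share of body windows with 5 unique sequences was 66.7% in IFITM1, 33.3% in IFITM3, 100% in IFITM5 and 0% in IFITM2. HRAS, a GTPase of growth factor signalling, and DRD4, a dopamine receptor, each had 5 of 6. The start window was listed in DRD4, where it has 72 CpG sites, and unlisted in HRAS, where it has 67.

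At 19p 30 of 31 genes had a listed promoter window, the 4 named neutrophil granule genes, which encode serine proteases and a related protein, among them. AZU1 had 6 of 6 windows listed, ELANE (neutrophil elastase) and CFD (complement factor D) had 3 and PRTN3 (proteinase 3) had 1. The start windows of these 4 named genes were listed, with 16 to 26 CpG sites each. PRSS57, a serine protease gene of the same end, was not among the named genes. Its start window, with 30 CpG sites, was unlisted, and 2 of 6 promoter and 5 of 20 body windows were listed.

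At 21q 12 of 13 genes had a listed promoter window, the 5 named ones among them, whose body windows were listed in 195 of 269 cases. COL6A1 and COL6A2, which encode chains of type VI collagen, had 4 and 6 of 6 promoter windows listed and 43 of 47 and 46 of 70 body windows. LSS, the lanosterol synthase of cholesterol synthesis, had 3 of 6 and 55 of 80. S100B, a calcium-binding protein, had 4 of 6 and PRMT2, an arginine methyltransferase, 3 of 6.

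At 22q, where 31 of 36 genes had a listed promoter window, the 6 named genes had 9 of 36 promoter and 39 of 167 body windows listed. SHANK3, a scaffold of the synapse, had 2 of 6 promoter and 17 of 116 body windows listed. CHKB, a choline kinase, had 1 of 6 and 0 of 8, and CPT1B, a carnitine palmitoyltransferase, 1 of 6 and 5 of 19. ARSA (arylsulfatase A) had 2 of 6, SCO2, a mitochondrial copper chaperone, 3 of 6, and TYMP (thymidine phosphorylase) 0 of 6 with 6 of 9 body windows.

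The listed share of the gene body differed widely among other named genes. EHMT1 at 9q, a histone H3 lysine 9 methyltransferase, had 400 of 434 body windows listed, 92.2%, and 5 of 6 promoter windows. AGRN at 1p, which encodes agrin, had 65 of 72, and SAMD11 beside it 30 of 41. The interferon-induced gene ISG15 and HES4, a target of Notch signalling, had 4 and 2 of 6 promoter windows and 0 of 2 body windows each. Both are short, so that their bodies cannot be set beside those of the long genes. At 18q NFATC1, a calcium-regulated transcription factor, had 136 of 267 body windows listed and 1 of 6 promoter windows. CTDP1, a phosphatase of RNA polymerase II, had 63 of 149 and 0 of 6. Over all genes of these ends, 8 of 10 at 1p and 7 of 10 at 18q had a listed promoter window.

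At 6p DUSP22, a phosphatase, had 82 of 118 body and 5 of 6 promoter windows listed, IRF4, a transcription factor of lymphocytes, 11 of 39 and 3 of 6, and EXOC2, a subunit of the exocyst, 74 of 416 and 0 of 6. At 6q DLL1, a ligand of Notch, had 14 of 17 body windows listed, while TBP, the TATA-binding protein, had 3 of 37 and PSMB1, a proteasome subunit, 9 of 37. At 16q the promoters of MC1R (the melanocortin receptor), TUBB3 (a neuronal tubulin) and FANCA (a DNA repair protein) had 4, 4 and 5 of 6 windows listed. At 2q PDCD1, the immune checkpoint receptor PD-1, had 3 of 6 and D2HGDH, a dehydrogenase of 2-hydroxyglutarate, 5 of 6. Over all genes of these ends, 3 of 4 at 6p and 6 of 11 at 6q had a listed promoter window. At 16q 24 of 25 genes had one, and at 2q 13 of 15.

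The beta-defensin genes DEFB125 to DEFB129 at 20p, which encode antimicrobial peptides, had 0 of 30 promoter windows and 0 of 38 body windows listed. Their start windows hold 0 to 5 CpG sites, and 88.9% to 100% of the body windows of each had 5 unique sequences. Beta-defensin genes in the rest of the autosomes were also sparsely listed, with 14 of 342 body windows, 4.09%. Over all genes of 20p, 13 of 22 had a listed promoter window. Members of duplicated subtelomeric families were also sparsely listed, with 7 of 48 promoter and 29 of 175 body windows over 8 genes. The listed promoters were those of ZNF595 at 4p with 5 of 6 windows and of FRG1 at 4q with 2 of 6. FRG2, FRG2B, OR4F5, OR4F16, WASHC1 (a subunit of the WASH complex) and TUBB8 (a tubulin of the oocyte) had 0 of 6 promoter windows listed and 1 body window in all. With the gene's 5' end as start TUBB8 had 3 of 6, and the others still had none. Of these 6 genes TUBB8 had 25% of its body windows with 5 unique sequences and the others 0%, against 81.4% in ZNF595.

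Listed windows came in runs without a gap. The 28419 windows formed 6710 runs with a median length of 2 windows, of which 2118 were single windows, and 44.05% of the windows lay in runs of at least 10. Runs were not counted outside the arm ends, where 17.3% of windows were listed against 37.9% here. Whether runs are longer here than elsewhere was therefore not tested. The longest run had 216 windows over 108 kb at 17q (chr17:80784501-80892500), within TBCD, a tubulin folding cofactor, and ZNF750, a zinc finger factor of epidermal differentiation. Its windows held 15.7 CpG sites on average, and 48.9% of them were predicted to be listed. Of the body windows of TBCD 369 of 388 were listed, and of ZNF750 21 of 21. The next 2 runs, of 60 and 57.5 kb, also lay at 17q. At other arm ends the longest runs lay at 15q (chr15:101682001-101735000, 53 kb, in CHSY1, a chondroitin synthase), 13q (45 kb, TFDP1, a partner of E2F factors) and 9q (40.5 kb, EXD3). At 15q the windows of the run held 8.72 CpG sites on average with 34.8% predicted to be listed, and PCSK6, a proprotein convertase, had 356 of 372 body windows listed.

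Stretches without a listed window were longest at 1q, 1p and 8p. The stretch at 1q spanned 747 kb (chr1:248329501-249076500) with olfactory receptor genes of the OR2 and OR14 families, 301 of its 1494 windows held undetermined bases and 54.7% of the others had 5 unique sequences. That at 1p spanned 443.5 kb (chr1:80001-523500), where 303 of 887 windows held undetermined bases and none of the others had 5 unique sequences. At 8p it spanned 222.5 kb, with 20 of 445 windows undetermined and 5 unique sequences in 18.8% of the others. At 14q it spanned 216 kb (chr14:106731501-106947500) with 61.6%, at 11p 189 kb with 0.775% and at 4q 188.5 kb with 80.1%. Of the stretch at 11p 120 of 378 windows held undetermined bases, and of those at 14q and 4q none did. The predicted shares of these 6 stretches were 12.8% at 1q and 16.7% to 19.99% at the others. In genes of low ends, CHL1 at 3p, a neural adhesion molecule, had 16 of 425 body windows listed. DLGAP2 at 8p, a synaptic scaffold protein, had 44 of 1938, but most of its body lies beyond the terminal megabase. The runs, stretches and the genes in them were chosen after their values had been seen.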

How the data were processed

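The authors sequenced captured DNA of 4 samples as single-end reads, aligned them with Bowtie (version 0.12.7) to hg19, kept uniquely mapped, monoclonal reads and counted them with MEDIPS. The deposited table holds the start and stop of each 500 bp window and 4 value columns. Those 4 columns match no sample label and were not used, so that depth per library and differences between conditions are not analysed here. The rule by which windows were kept is not given in the sources used here.

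Windows were compared with the 500 bp grid of GRCh37, leaving out windows with undetermined bases. The predicted share was that of autosomal windows with the same CpG number (40 or more as 1 class) and GC content in steps of 25 bases, the arm ends included. Of each window 5 sequences of 50 bases were matched exactly, on both strands, to the whole genome. Genes were canonical protein-coding transcripts of GENCODE version 44 lifted to GRCh37, and a window was assigned by its midpoint. Intervals are 95% Wilson intervals. Calculations used Python 3.11.15, NumPy 2.4.6, pandas 2.3.3 and SciPy 1.17.1, and the prediction was tested on simulated data.

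The arm ends described in full were the 3 highest and 3 lowest ratios and those with a named gene, and others were named after their values were seen. Sequences to print were searched outside chromosome 8, and some are not reported here. The members and gene lists were chosen with earlier results of these data known. DUX4 and OR4F29 had no protein-coding entry in the annotation used.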

Additional observations from a re-analysis of the deposited data

How the results depend on the processing

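The listed share of 37.9% was 30.3% in the terminal 500 kb, 40.4% in the terminal 2 Mb, 37.1% with ends set at the determined bases of the assembly, 43.3% in windows with 5 unique sequences and 36.4% with undetermined windows counted. The ratio of 1.14 was 1.01 in the terminal 500 kb, 1.16 in the terminal 2 Mb, 1.25 with prediction from CpG number alone, 2.16 without prediction, 1.22 with prediction from windows over 10 Mb from the ends and 1.13 in unique windows. In alternatives chosen after seeing the data it was 1.151 with prediction from unique sequences too, 1.152 with prediction within each chromosome and 1.12 as the median over arm ends, and the ratio of 0.755 in the outer 200 kb was 0.664 from the determined bases of the assembly. Without each arm end in turn the share ranged from 36.5% (without 17q) to 38.8% (without 14q) and the ratio from 1.104 (without 15q) to 1.16 (without 8p). The 19 arm ends with a higher ratio than the adjacent megabase became 25 against 2 to 10 Mb, 11 by share with no prediction and 12 for the terminal 500 kb against the next 500 kb. The 536 genes with a listed promoter window became 486 with 1500 bp promoters and 533 with the gene's 5' end as start. The causes of these shifts were not tested. No paired analysis was possible because the value columns carry no sample name. Depth is unknown here, and an unlisted window may have had reads.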
